A study of Mus musculus with 18 samples.

Results

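The high fat diet (HFD) was compared with the control diet (CD) in the 8 of 18 mouse colon libraries whose labels name a diet without calling it serine-free. There were 5 HFD and 3 CD libraries, and the other 10 libraries (5 SF_CD and 5 SF_HFD) came from the serine-free versions of the same diets. All groups share the tissue label colon, the cell type label tumor and the genotype label wild type. The label sources name no tumor driver, age, sex or length of feeding, and no agent other than the diet. The extraction protocol in the labels speaks of organoids, which are epithelial cells grown as small spheres in a gel, whereas the series' design text speaks of sorted live cells, so the material that was sequenced is uncertain. Nothing in the labels states that each library is a different animal or culture, so the p-values reflect only how far these libraries vary, and that variation may be technical.

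A colon tumor cell draws on glucose through glycolysis, on fatty acids through β-oxidation and on amino acids for its carbon and nitrogen. Hypoxia-inducible factors raise transcripts of glucose transporters, glycolytic enzymes and Vegfa when oxygen is short. E2F factors raise transcripts of the DNA replication machinery when a cell enters S phase. High fat feeding is known for work on intestinal stem cells in which PPAR signalling, fatty acid oxidation and crypt stem cell genes were studied, so these groups are described here beside glycolysis, replication and the stress pathways.

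The row labels of the deposited table are out of step with the 8 columns, and every gene name below rests on putting their rows back in order. When the table's rows were sorted by lower-case gene symbol, then symbol, then identifier, with rows lacking a symbol last, the i-th deposited value was taken as that of the i-th gene. Over all rows, log2 summed counts of the 8 columns then correlated with those of the 10 serine-free columns with Pearson r = 0.958, against 0.028 as deposited. This r is across genes, which are not independent replicates. Genes were named in blocks of 500 ordered rows with r over 0.5, which gave names to 53111 of 54354 rows, in 107 of 109 blocks. Named blocks had r from 0.538 to 0.982 (median 0.899). Naming also required that no move of up to 20 rows to either side gave a higher r, so the shifts are no separate check. At other shifts the r of named blocks reached 0.672 at most. The block just inside the limit had r = 0.538 and the block just outside, of 354 rows, had r = -0.019. The 2 unnamed blocks held only rows without a symbol, so the limit left out no row with a symbol. The agreement was measured on blocks, so the name of a single row was not tested on its own.

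**Figure D1:**
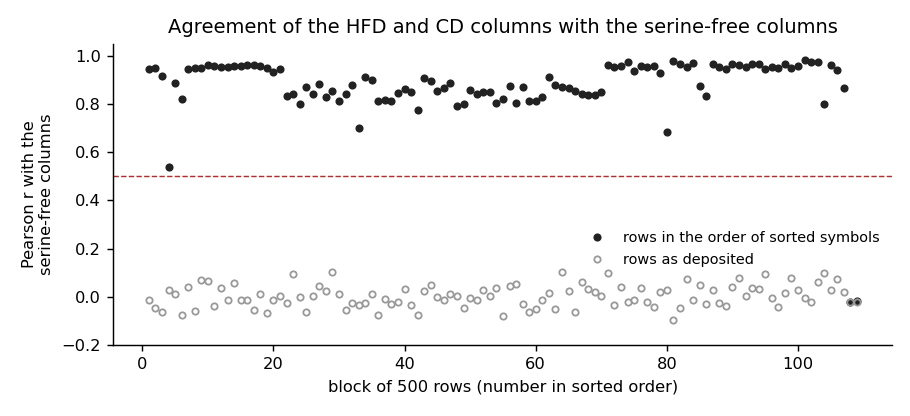
Pearson correlation (vertical axis) of log2 summed counts between the 8 HFD and CD columns and the 10 serine-free columns in each block of 500 rows (horizontal axis), with rows in sorted order (filled) and as deposited (open). The dashed line is the limit of 0.5. Filled points of named blocks lie between 0.538 and 0.982, and open points reach at most 0.102.

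CD libraries held 4595404 to 8173352 estimated counts and HFD libraries 3513703 to 7235611, so that 3 counts, the floor used here, stand for 0.367 to 0.854 counts per 1000000 counts (CPM). CPM below are normalised by the trimmed mean of M values (TMM), means are given with the SD over 3 CD or 5 HFD libraries, and log2 fold changes are fitted HFD minus CD values. After realignment the epithelial markers were present in every library: Epcam, an adhesion molecule of epithelial cells, lay at 174 to 209 CPM in CD and 163 to 207 in HFD, and Krt8, a keratin of simple epithelia, at 408 to 565 and 359 to 538. Of the pan-epithelial list, 14 of 15 members were tested, and Ezr, the gene of the membrane linker ezrin, was called lower (2.59% over all genes). That call was lost without CD libraries 1 and 2 (adjusted p = 0.057 and 0.0812) and HFD libraries 1, 2 and 4 (0.0791, 0.0701 and 0.0726). Markers of other cell types differed in level. The summed smooth muscle list (13 genes) reached 15.3 CPM at most, 9 of 12 lymphocyte markers were at 0 in all 8 libraries, Ptprc, the pan-leucocyte gene, was at most 1.31 CPM, and the endothelial genes Cdh5 and Kdr were at 0. The summed endothelial list (10 genes) was 23.9 to 34.3 CPM in CD and 18.3 to 24.4 in HFD, most of it from Pecam1 (19.7 to 33.1 and 16.5 to 21.2 CPM), well above the floor. The summed fibroblast list (15 genes) was 51.8 to 137 CPM in CD and 110 to 138 in HFD. Of its members 4 passed the filter on low counts. The collagen gene Col1a1, at a mean of 0.44 CPM in CD and 1.09 in HFD, did not. The summed macrophage list (13 genes) was 54.4 to 102 and 43.5 to 97.0 CPM, with Adgre1 at 0. Shares of counts also differed by diet: ribosomal RNA rows took 1.66% to 2.68% of CD counts and 0.562% to 1.03% of HFD counts in these poly(A)-selected libraries, and mitochondrially encoded genes took 2.94% to 3.24% and 3.38% to 4.36%, both without overlap. The part of these differences in the results below was not tested.

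By edgeR's quasi-likelihood test with Benjamini-Hochberg adjustment over all rows tested, 452 of 10334 named genes differed at an adjusted p under 0.05 (4.37%). In HFD 184 were higher (1.78%) and 268 lower (2.59%), and among called genes changes over 2-fold were mostly falls, 175 against 47 rises. The median log2 fold change of all 10334 was -0.02, and 48.5% were positive. In 1416 genes (13.7%) the groups did not overlap, among them 422 of the called ones. These counts depend on single libraries. Without CD library 2 there were 39 calls and without HFD library 1 there were 50, whereas without CD library 3 there were 1159. The counts were 157 without CD library 1, 109 without HFD library 2, 295 without HFD library 3 and 78 without HFD library 4. Without HFD library 5 there were 510. Of the 452 genes, 37 were also called without CD library 2, 50 without HFD library 1 and 400 without CD library 3, and every call shared with any of these 8 fits had the same direction.

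**Figure D2:**
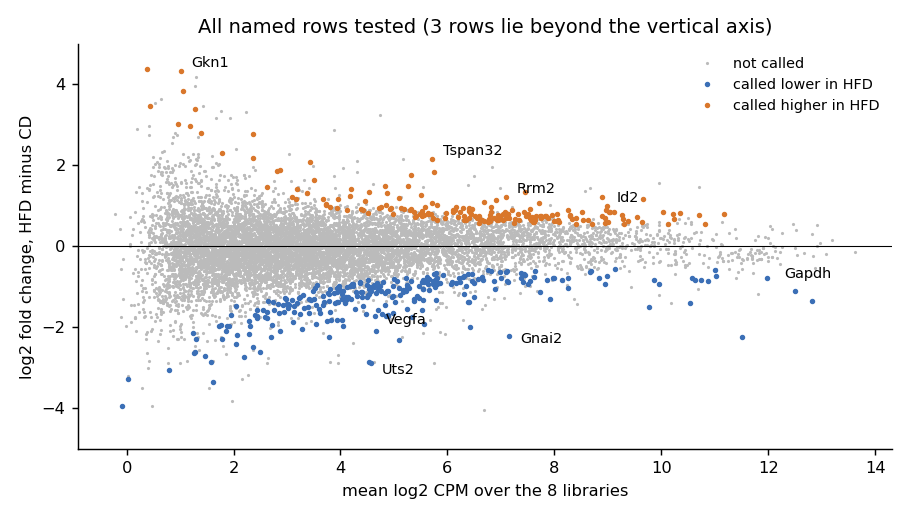
Fitted log2 fold change, HFD minus CD (vertical axis), against mean log2 CPM over the 8 libraries (horizontal axis) for 10334 named genes, with called genes in colour. Called falls outnumber called rises, 268 against 184, and 3 genes lie beyond the axis limits of -5 and 5.

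In the glycolysis and hypoxia list the calls were all falls. Of 26 members of that list, all tested, 6 were called lower (2.59% over all genes) and 0 higher, 25 had a negative log2 fold change, and the median was -0.43 against -0.02 for all genes. The called members were Gapdh and Tpi1, both glycolytic enzymes, the glucose transporter gene Slc2a1, the angiogenic factor gene Vegfa, the prolyl hydroxylase gene P4ha1, whose enzyme hydroxylates collagen, and Egln3, which encodes an oxygen sensor that marks hypoxia-inducible factors for degradation. In 8 members all HFD libraries lay below all CD libraries, as they did in 6.99% of all genes. The summed list was 24500, 33900 and 27400 CPM in CD against 18000, 17600, 22500, 19000 and 23300 in HFD. In bulk samples, fewer cells of a type and less RNA per cell cannot be told apart.

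Gapdh (chromosome 6, 125161715 to 125166467, mm10) had 8100, 10700 and 9500 CPM in CD libraries 1 to 3 and 3780, 3140, 5110, 4270 and 5880 CPM in HFD libraries 1 to 5. Every HFD library was below every CD library. Its log2 fold change was -1.09 (SE 0.18, adjusted p = 0.0114). Of its 31-base transcript words, 27.2% also occur in other genes, with Gm7336, Gm3272 and Gm10358 sharing most, so its count is less certain than that of a gene without copies. Tpi1 had 2800, 3460 and 2400 CPM in CD and 1550, 1540, 1900, 1620 and 2080 in HFD. It too fell without overlap, by 0.73 on the log2 scale (SE 0.16, adjusted p = 0.0239). The place of Tpi1 in the sorted order changes when punctuation in symbols is ignored, and the plain order fitted the rows that move better (r = 0.964 against 0.405). Slc2a1 had 105, 98.0 and 124 CPM in CD and 68.5, 62.1, 75.1, 44.9 and 73.9 in HFD, with no overlap and a log2 fold change of -0.75 (SE 0.19, adjusted p = 0.0363).

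Vegfa (chromosome 17, 46016993 to 46032369) had 51.9, 55.1 and 58.3 CPM in CD and 18.4, 8.37, 24.2, 9.87 and 21.7 in HFD. The CD libraries sat within a narrow band and all HFD libraries were far below it, and the log2 fold change was -1.73 (SE 0.30, adjusted p = 0.0123). P4ha1 (chromosome 10, 59323296 to 59373304) had 35.7, 49.8 and 21.8 CPM in CD and 9.07, 7.83, 11.3, 4.28 and 17.8 in HFD. Its lowest CD value stood above its highest HFD value, and it fell by 1.82 on the log2 scale (SE 0.38, adjusted p = 0.0243). Egln3 had 40.2, 62.7 and 58.8 CPM in CD and 19.8, 26.4, 22.6, 26.0 and 36.4 in HFD, with a log2 fold change of -1.03 (SE 0.23, adjusted p = 0.0251). Outside the list, and chosen after their values were seen, the hypoxia-induced lipid droplet gene Hilpda went from 280 ± 33.7 to 147 ± 49.0 CPM (log2 fold change -0.93, adjusted p = 0.0374). The secreted glycoprotein gene Stc1 had 2.22 to 3.60 CPM in CD, 0 in 4 HFD libraries and 0.725 in the other (adjusted p = 0.0361), values at or near the floor.

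Not all of the pathway passed the test. Ldha, which makes lactate, had 5960 to 8980 CPM in CD and 5550 to 7190 in HFD (log2 fold change -0.16, adjusted p = 0.633). Pgk1 and Aldoa had log2 fold changes of -0.18 and -0.19 (adjusted p = 0.546 and 0.562). The enolase gene Eno1 was the 1 member with a positive value, 475 to 554 CPM in CD and 567 to 624 in HFD, without overlap (log2 fold change 0.18, adjusted p = 0.488). Ero1a, an oxidoreductase of the endoplasmic reticulum, had a log2 fold change of -1.24 (adjusted p = 0.0843). All 6 calls were lost without CD library 2, where adjusted p was 0.0538 for Gapdh and Vegfa and 0.0786 to 0.109 for the others. Apart from Gapdh and Vegfa, the calls were also lost without HFD library 1 (0.0761 to 0.0874) and HFD library 2 (0.0592 to 0.0847), those of Tpi1, Slc2a1 and Egln3 without HFD library 4 (0.0603 to 0.0813), and those of P4ha1 and Slc2a1 without CD library 1 (0.0606 and 0.0844). The log2 fold changes stayed negative in all 8 of those fits. Of the genes from outside the list, Hilpda kept its call without HFD library 5 only (adjusted p up to 0.147 in the other 7 fits), and Stc1 kept it without CD library 3 or HFD library 5 (up to 0.151 in the other 6).

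The promoters of called members are shown beside the core letters ACGTG or GCGTG, which hypoxia-inducible factors are known to bind. Windows of 250 bases before to 50 after the start were taken from RefSeq (GRCm38.p6) and searched on both strands. The core occurs in 4 of the 6 called members, in 19 of the 25 tested members with a window (76.0%) and in 14380 of all 32851 windows (43.8%). The windows of Gapdh (chr6:125165724-125166023, minus strand), Slc2a1 (chr4:119108495-119108794, plus strand), Egln3 (chr12:54203825-54204124, minus strand) and P4ha1 (chr10:59323046-59323345, plus strand) follow, with the core in capitals on either strand. A match describes these letters and is not a measured binding site.
Gapdh: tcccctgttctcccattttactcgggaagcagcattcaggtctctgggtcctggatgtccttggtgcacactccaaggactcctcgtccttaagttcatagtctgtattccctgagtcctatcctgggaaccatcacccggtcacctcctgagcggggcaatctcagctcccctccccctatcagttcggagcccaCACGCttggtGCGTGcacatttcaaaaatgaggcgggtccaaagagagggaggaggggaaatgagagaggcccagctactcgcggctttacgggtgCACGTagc
Slc2a1: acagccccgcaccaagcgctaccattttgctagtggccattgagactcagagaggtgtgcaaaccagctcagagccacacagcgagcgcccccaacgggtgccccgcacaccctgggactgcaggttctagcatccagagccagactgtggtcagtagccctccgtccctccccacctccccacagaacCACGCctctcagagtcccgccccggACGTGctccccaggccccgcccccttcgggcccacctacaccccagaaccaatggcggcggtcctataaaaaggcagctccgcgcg
Egln3: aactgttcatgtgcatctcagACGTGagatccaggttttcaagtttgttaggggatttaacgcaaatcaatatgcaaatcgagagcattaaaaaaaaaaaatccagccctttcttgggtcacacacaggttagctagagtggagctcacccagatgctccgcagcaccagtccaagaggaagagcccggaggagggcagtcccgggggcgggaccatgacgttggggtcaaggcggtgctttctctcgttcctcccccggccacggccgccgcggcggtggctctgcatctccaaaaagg
P4ha1: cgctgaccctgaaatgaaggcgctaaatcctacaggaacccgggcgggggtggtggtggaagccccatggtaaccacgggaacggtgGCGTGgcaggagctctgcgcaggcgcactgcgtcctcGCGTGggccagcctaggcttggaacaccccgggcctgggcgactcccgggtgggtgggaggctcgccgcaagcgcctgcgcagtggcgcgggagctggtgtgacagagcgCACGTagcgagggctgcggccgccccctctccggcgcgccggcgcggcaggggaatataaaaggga

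In the DNA replication list the calls were mostly rises. Of 37 members of that list, all tested, 6 were called higher (1.78% over all genes) and 1 lower, 35 had a positive log2 fold change, and the median was 0.42. The called rises were Rrm2, which encodes the small subunit of ribonucleotide reductase that makes deoxynucleotides, Pcna, the sliding clamp, Rfc4, a subunit of the clamp loader, Gins2, part of the replicative helicase, Fen1, the flap endonuclease of lagging strand synthesis, and Pola2, a subunit of the primase-polymerase. In 11 members every HFD library exceeded every CD library, as in 6.72% of all genes. The summed list was 1940, 1450 and 2030 CPM in CD and 2600, 2610, 2450, 2660 and 2140 in HFD.

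Rrm2 (chromosome 12, 24708241 to 24714146) had 81.4, 70.1 and 90.9 CPM in CD and 204, 209, 200, 202 and 134 in HFD. The groups did not overlap, although HFD library 5 lay well below the other HFD libraries. The log2 fold change of Rrm2 was 1.23 (SE 0.18, adjusted p = 0.00676), and the call held in all 8 fits without 1 library (adjusted p up to 0.0295). Rfc4 had 75.4, 73.6 and 118 CPM in CD and 144, 167, 155, 154 and 136 in HFD, a log2 fold change of 0.77 (SE 0.18, adjusted p = 0.0303). Gins2 had 49.9, 32.7 and 60.9 CPM in CD and 86.9, 101, 99.2, 68.9 and 76.4 in HFD, a log2 fold change of 0.86 (SE 0.22, adjusted p = 0.0374). For both genes the highest CD value, that of library 3, stayed under the lowest HFD value.

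Fen1 had 41.8, 27.2 and 26.4 CPM in CD and 76.6, 77.2, 45.6, 69.1 and 45.4 in HFD, and rose by 0.97 on the log2 scale (SE 0.25, adjusted p = 0.0375). HFD libraries 3 and 5 were close to CD library 1 without reaching it. Pola2 had 15.0, 19.6 and 27.6 CPM in CD and 41.1, 47.8, 32.0, 41.5 and 32.5 in HFD (log2 fold change 0.92, SE 0.24, adjusted p = 0.045). Pcna had 262, 233 and 305 CPM in CD and 401, 407, 404, 397 and 346 in HFD (log2 fold change 0.55, SE 0.15, adjusted p = 0.0464), again with HFD library 5 the lowest of its group. Rfc1, which encodes the large clamp loader subunit, went the other way, with 155, 123 and 169 CPM in CD and 92.2, 76.4, 108, 107 and 99.4 in HFD (log2 fold change -0.62, SE 0.17, adjusted p = 0.049). The helicase genes Mcm2 to Mcm7 were all on the positive side, from 0.23 for Mcm7 to 0.79 for Mcm5, and none passed the test (lowest adjusted p = 0.0789, for Mcm5). Apart from Rrm2, each of the list's calls was lost in 5 or more of the 8 fits without 1 library, with adjusted p up to 0.147 for Gins2 and Fen1, 0.121 for Rfc4, 0.159 for Pola2, 0.17 for Pcna and 0.129 for Rfc1. Leaving out CD library 2 or HFD library 1, 2 or 4 ended all 6 of these calls, CD library 1 or HFD library 3 all but that of Fen1, CD library 3 those of Fen1 and Rfc1, and HFD library 5 that of Rfc1. No log2 fold change turned. Pola2, Pcna and Rfc1, like Slc2a1 and Egln3 above, lie outside the rule for named genes and were chosen after their values were seen.

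**Figure D3:**
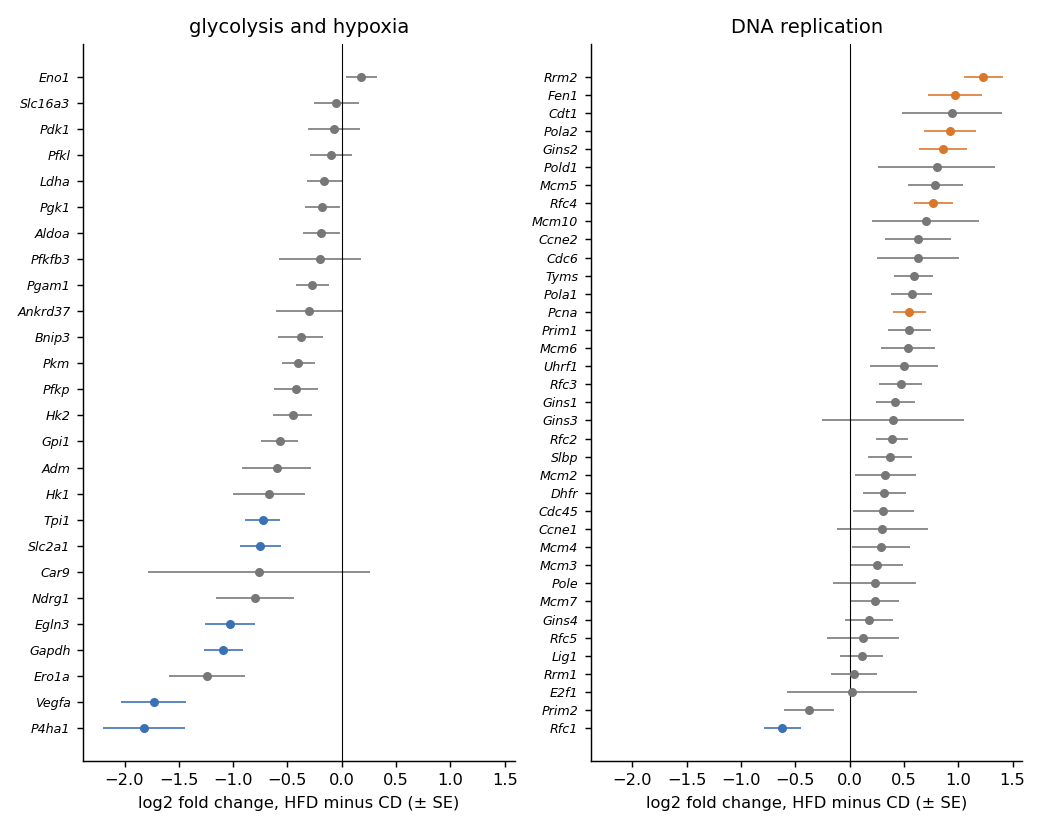
Fitted log2 fold change with its SE (horizontal axis) of each member of the glycolysis and hypoxia list (left, 26 genes) and of the DNA replication list (right, 37 genes), with called genes in colour. On the left 25 of 26 points lie below 0 and on the right 35 of 37 lie above.

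**Figure D4:**
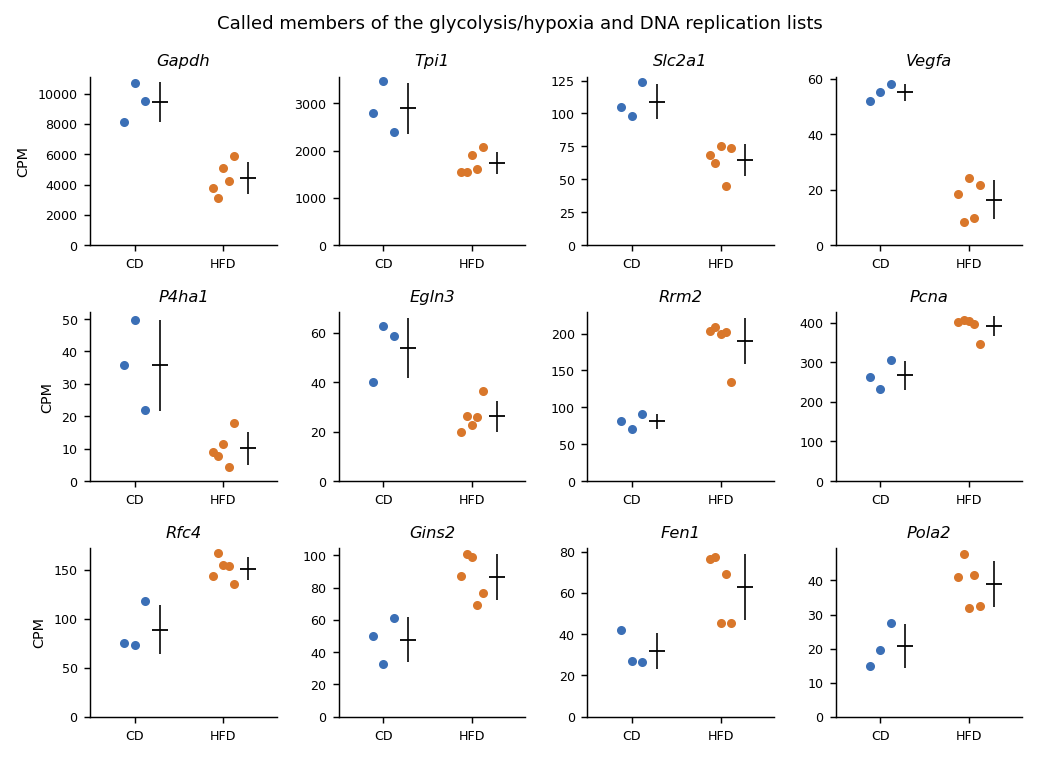
CPM (vertical axes, from 0) of the 12 called members that share their list's direction, in each of 3 CD and 5 HFD libraries, with mean and SD as bars. In all 12 panels the groups do not overlap.

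The replication promoters were searched for the E2F core, which is TTT followed by GG, CC, CG or GC and then by CG, on either strand. Of the 6 called rises, 5 have a window, and 2 of these 5 hold the core. Overall 2202 of 32851 windows hold it (6.7%). A share over the whole list would be void, since only 28 of its 37 members have a window, and 5 windows are too few to set against the share overall. The windows of the genes with a match, Fen1 (chr19:10204344-10204643, minus strand) and Pola2 (chr19:5964157-5964456, minus strand), are shown with the core in capitals.
Fen1: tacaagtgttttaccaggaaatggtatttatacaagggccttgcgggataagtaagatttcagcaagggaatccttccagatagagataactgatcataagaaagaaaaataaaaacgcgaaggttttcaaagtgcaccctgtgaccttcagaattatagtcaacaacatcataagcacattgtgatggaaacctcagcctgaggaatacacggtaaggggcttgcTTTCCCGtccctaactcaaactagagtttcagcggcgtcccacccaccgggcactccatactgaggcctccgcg
Pola2: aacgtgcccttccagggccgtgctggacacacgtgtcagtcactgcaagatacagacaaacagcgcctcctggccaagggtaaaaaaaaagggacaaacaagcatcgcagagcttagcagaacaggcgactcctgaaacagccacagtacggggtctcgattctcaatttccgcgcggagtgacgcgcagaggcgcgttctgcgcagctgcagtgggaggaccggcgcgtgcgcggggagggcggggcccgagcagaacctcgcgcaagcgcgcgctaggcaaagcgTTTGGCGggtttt

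Genes of later cell cycle steps had a call in each direction. Of 28 mitosis genes tested, 1 was called higher and 1 lower (1.78% and 2.59% over all genes), with a median of 0.20. Ccnb1, the mitotic cyclin, had 154, 128 and 160 CPM in CD and 271, 296, 246, 260 and 174 in HFD, without overlap (log2 fold change 0.76, adjusted p = 0.0305). Cenpe, a kinetochore motor, had 138, 80.1 and 193 CPM in CD and 58.3, 69.6, 92.4, 62.0 and 81.3 in HFD, where HFD libraries 3 and 5 exceeded CD library 2 (log2 fold change -0.91, adjusted p = 0.048). Mki67, the proliferation marker, had 38.4 to 76.8 CPM in CD and 45.2 to 69.2 in HFD (log2 fold change -0.06, adjusted p = 0.925). Among regulators of the cycle that were chosen after their values were seen, the inhibitor genes Cdkn2a (18.6 ± 5.60 to 7.57 ± 2.53 CPM, adjusted p = 0.0313) and Cdkn1b (15.7 ± 4.06 to 5.48 ± 2.06 CPM, adjusted p = 0.0262) were lower. The histone methyltransferase gene Ezh2 fell from 73.9 ± 7.72 to 31.5 ± 5.49 CPM (log2 fold change -1.23, adjusted p = 0.00696). The p53 target Cdkn1a had 122, 137 and 127 CPM in CD and 36.8, 27.0, 84.6, 58.9 and 82.1 in HFD, without overlap, and missed the threshold (log2 fold change -1.15, adjusted p = 0.0763). Cdkn1a was called without HFD library 3 (0.0481), without HFD library 5 (0.0427), with DESeq2 (0.00589) and with limma-voom (0.0299). None of 14 p53 targets tested was called, and their median was -0.25. Another of them, Perp, was called without CD library 3 (0.00522) and with DESeq2 (0.0333). Ezh2 was called in all 8 fits without 1 library, whereas the other 4 calls of this paragraph were each lost in 5 or more of them (adjusted p up to 0.12 for Ccnb1, 0.127 for Cenpe, 0.169 for Cdkn2a and 0.116 for Cdkn1b). Leaving out HFD library 1, 2 or 4 ended all 4, CD library 1 those of Ccnb1, Cenpe and Cdkn1b, CD library 2 those of Ccnb1, Cdkn2a and Cdkn1b, HFD library 3 those of Ccnb1 and Cdkn2a, and CD library 3 or HFD library 5 that of Cenpe. Ezh2 was also chosen after its value was seen.

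The 3 calls in the fatty acid oxidation and PPAR list were falls. Of 30 members of the fatty acid oxidation and PPAR list that were tested (of 45), 3 were called lower and 0 higher, with a median of -0.24. Over all genes 2.59% were called lower and 1.78% higher. Pparg, the lipid-sensing nuclear receptor, had 24.7, 37.4 and 32.9 CPM in CD and 6.45, 9.18, 15.2, 16.0 and 12.8 in HFD. All HFD libraries were below all CD libraries (log2 fold change -1.40, SE 0.29, adjusted p = 0.02). Acadl, the long-chain acyl-CoA dehydrogenase, had 58.3, 98.9 and 69.1 CPM in CD and 33.4, 33.2, 46.6, 35.0 and 47.4 in HFD (log2 fold change -0.94, SE 0.21, adjusted p = 0.0257). Fabp2, the intestinal fatty acid binding protein, had 13.3, 36.5 and 10.6 CPM in CD and 2.39, 2.43, 2.67, 7.90 and 7.54 in HFD (log2 fold change -2.09, SE 0.51, adjusted p = 0.0411). Neither Acadl nor Fabp2 overlapped between groups.

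Cpt1a, the gatekeeper of mitochondrial fatty acid entry, had 3.89, 6.72 and 3.36 CPM in CD and 3.58, 6.21, 6.98, 3.95 and 6.96 in HFD (log2 fold change 0.24, SE 0.41, adjusted p = 0.80). Plin2, the lipid droplet coat gene, had a log2 fold change of 0.75 (adjusted p = 0.222). The acyl-CoA synthetase genes Acsl3 (43.3 ± 10.4 to 20.2 ± 3.82 CPM, adjusted p = 0.0211) and Acsl4 (26.7 ± 2.12 to 11.9 ± 2.16 CPM, adjusted p = 0.02), named after their values were seen, were lower without overlap. None of 25 cholesterol genes and none of 18 fatty acid synthesis genes was called, with medians of 0.02 and 0.16. Without CD library 2 the calls of Pparg, Acadl, Fabp2, Acsl3 and Acsl4 were all lost (adjusted p from 0.0664 to 0.202), 4 of the 5 were lost without HFD library 1 (0.0608 to 0.101), without HFD library 2 (0.053 to 0.0902) or without HFD library 4 (0.0562 to 0.0668), and those of Fabp2 and Acsl4 without CD library 1 (0.0604 and 0.057). That of Fabp2 was also lost without HFD library 3 (0.0763).

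Serine-derived lipid and one-carbon genes were not called. None of 13 ceramide synthesis genes, 20 ceramide turnover genes or 20 serine and one-carbon genes passed the test, with medians of 0.00, 0.28 and 0.16. Sptlc1 and Sptlc2 encode the enzyme that joins serine to palmitoyl-CoA as the entry to ceramide. Sptlc1 had 23.2, 19.3 and 13.7 CPM in CD and 18.6, 17.3, 22.0, 17.9 and 18.4 in HFD (log2 fold change 0.00, SE 0.24). Sptlc2 had 22.1, 27.6 and 21.1 CPM in CD and 31.5, 21.3, 25.2, 17.1 and 20.7 in HFD (log2 fold change -0.03, SE 0.24). Degs1, the desaturase of the last step, had 12.8, 9.93 and 12.0 CPM in CD and 30.1, 35.4, 18.9, 8.55 and 21.9 in HFD. Its HFD libraries 1, 2, 3 and 5 exceeded all CD libraries while library 4 was below them (log2 fold change 0.98, SE 0.37, adjusted p = 0.144). With no filter on low counts Degs1 was called (0.0265). The ceramide synthase gene Cers6 had 6.48 to 10.8 CPM in CD and 5.07 to 16.7 in HFD (adjusted p = 0.706). Phgdh, which starts serine synthesis from glycolysis, had 236, 198 and 264 CPM in CD and 217, 189, 220, 220 and 240 in HFD (log2 fold change -0.10, SE 0.15, adjusted p = 0.777). Of the transcript words of Phgdh, 55.8% also occur in other genes, so its count is less certain than that of a gene without copies. Tyms, the thymidylate synthase gene shared with the replication list, had 173 to 228 CPM in CD and 236 to 397 in HFD without overlap (log2 fold change 0.59, adjusted p = 0.0794). Tyms was called with DESeq2 (0.0371) and with no filter on low counts (0.0297).

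All calls among the stress response lists were falls. Of 16 ATF4 stress response genes tested, 3 were called lower and 0 higher (2.59% and 1.78% over all genes), with a median of -0.19. Slc3a2, the heavy chain of amino acid exchangers, had 242, 171 and 204 CPM in CD and 115, 119, 104, 91.1 and 129 in HFD (log2 fold change -0.88, SE 0.17, adjusted p = 0.0168). The transcription factor gene Atf4 had 182, 156 and 276 CPM in CD and 83.3, 107, 149, 117 and 110 in HFD (log2 fold change -0.85, SE 0.21, adjusted p = 0.032). Neither overlapped between groups. Atf3, also in the immediate early list, had 11.6, 17.2 and 23.3 CPM in CD and 2.63, 7.29, 10.5, 3.45 and 7.25 in HFD (log2 fold change -1.47, SE 0.39, adjusted p = 0.0465). The asparagine synthetase gene Asns, a classical ATF4 target, had a log2 fold change of -0.02 (adjusted p = 0.972), and Trib3 one of -0.23 (adjusted p = 0.724). Of 19 immediate early genes tested, 2 were called lower, Atf3 and the AP-1 subunit gene Fosl2, with a list median of -0.44. Fosl2 had 26.7, 28.0 and 28.1 CPM in CD and 9.55, 8.91, 16.6, 10.4 and 7.83 in HFD, far apart (log2 fold change -1.37, SE 0.26, adjusted p = 0.0179). All 4 calls were lost without HFD library 1 (0.0573 to 0.102). Without CD library 1 those of Slc3a2, Atf4 and Atf3 were lost (0.0538 to 0.0604), without CD library 2 those of Atf4, Atf3 and Fosl2 (0.0513 to 0.14), and without CD library 3, HFD library 2 or HFD library 4 those of Atf4 and Atf3 (0.0533 to 0.105). Atf3 was also lost without HFD library 5 (0.0563).

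The NF-kB list had the lowest median, -0.72 over 18 tested genes, and no member was called. Its CD libraries differed among themselves, with summed CPM of 585, 632 and 214 in CD and 198, 184, 181, 230 and 343 in HFD. Library 3 of CD lay within the HFD range. Nfkbia, the inhibitor that NF-kB induces, had 97.5, 155 and 76.1 CPM in CD and 49.4, 35.4, 44.8, 64.2 and 79.9 in HFD (log2 fold change -1.0, SE 0.27, adjusted p = 0.0546). It was called without CD library 3 (adjusted p = 0.0126) and without HFD library 5 (0.0207). Nfkbia was also called with DESeq2 (0.0103), limma-voom (0.0484) and no filter on low counts (6.52e-05).

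In the NRF2 and glutathione list, 2 of 21 tested genes were called lower (2.59% over all genes) and 0 higher. The list median was -0.26. Gsta4, a glutathione transferase acting on lipid peroxidation products, had 310, 473 and 289 CPM in CD and 161, 130, 123, 242 and 163 in HFD, without overlap (log2 fold change -1.13, SE 0.22, adjusted p = 0.02). Gsta1 had 54.9, 52.9 and 16.3 CPM in CD and 5.49, 8.64, 10.5, 17.4 and 10.7 in HFD, where HFD library 4 exceeded CD library 3 (log2 fold change -1.96, SE 0.40, adjusted p = 0.0251). Of the transcript words of Gsta1, 92.9% occur in other genes such as Gsta2, so its count cannot be separated well from theirs. Both calls were lost without CD library 2 (0.0856 and 0.104) and HFD library 1 (0.0633 each), and that of Gsta1 also without CD library 1 (0.0731) and HFD libraries 2 and 3 (0.0701 and 0.0515). None of 18 endoplasmic reticulum chaperone genes was called (median -0.26).

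**Figure D5:**
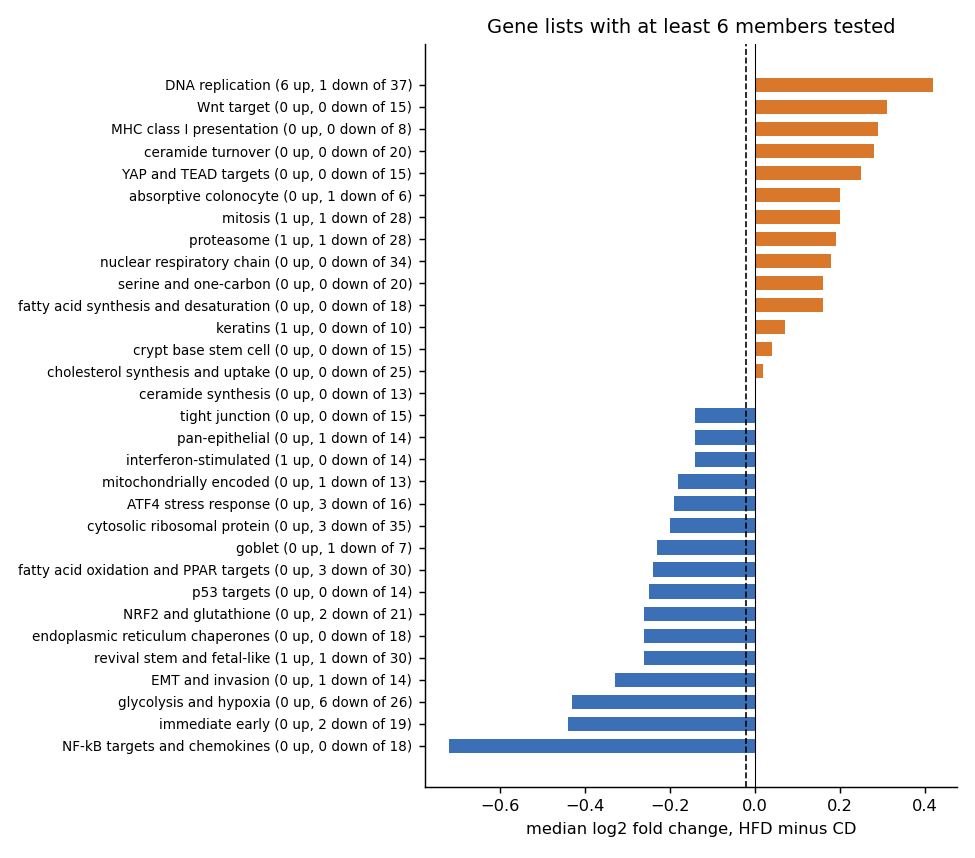
Median log2 fold change, HFD minus CD (horizontal axis), of each of the 38 first gene lists that had at least 6 tested members, with counts called higher and lower beside the name. The dashed line is the median of all 10334 genes, -0.02. The longest bars are those of the NF-kB list (-0.72, no member called), the immediate early list (-0.44), the glycolysis and hypoxia list (-0.43) and the DNA replication list (0.42).

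None of 15 crypt base stem cell genes, 15 Wnt targets or 15 YAP and TEAD targets tested was called, with medians of 0.04, 0.31 and 0.25. Lgr5, the crypt base stem cell receptor, had 1.22, 2.19 and 2.88 CPM in CD and 7.64, 18.1, 3.70, 1.97 and 3.04 in HFD. HFD libraries 1 and 2 stood out and library 4 lay inside the CD range (log2 fold change 1.71, SE 0.70, adjusted p = 0.18). With no filter on low counts Lgr5 was called (0.0281). Of 30 tested genes of the revival stem and fetal-like list, 1 was called higher and 1 lower (1.78% and 2.59% over all genes). Leaving out 1 library gave 0 to 2 rises and 0 to 13 falls in this list. The 13 falls came without CD library 3, a fit in which 592 of all genes were called lower. The list median was -0.26. Clu, the marker of revival stem cells, had 46.2, 67.8 and 52.5 CPM in CD and 233, 368, 27.9, 39.6 and 264 in HFD. The HFD libraries fell apart, with libraries 1, 2 and 5 above all CD libraries and libraries 3 and 4 below them (log2 fold change 1.75, SE 0.95, adjusted p = 0.365). Anxa1 had 1770 to 2730 CPM in CD and 2470 to 3550 in HFD (adjusted p = 0.163), and Ly6a, also known as Sca-1, had 2760 to 4710 and 1870 to 2970 (adjusted p = 0.0788). Ly6a was called without CD library 3 (0.0102) and without HFD library 5 (0.0481), with DESeq2 (0.0461) and with no filter on low counts (0.00155). Of its transcript words, 31.9% also occur in other genes, with Ly6c1, Ly6i and Ly6c2 sharing most.

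The called members of that list were Basp1 and Areg. Basp1, a membrane-bound signalling protein gene, had 0.333, 0.292 and 0.960 CPM in CD and 5.01, 3.51, 2.46, 2.47 and 12.5 in HFD. Its CD values were at or near the floor of 3 counts, and all HFD libraries were above them (log2 fold change 3.39, SE 0.76, adjusted p = 0.0253). Areg, an EGF receptor ligand, had 51.8, 18.6 and 42.5 CPM in CD and 14.6, 17.3, 13.3, 12.7 and 21.2 in HFD, with HFD library 5 above CD library 2 (log2 fold change -1.25, SE 0.29, adjusted p = 0.03). Basp1 was lost without CD library 1, CD library 2, HFD library 1 and HFD library 5 (0.0883, 0.106, 0.0648 and 0.0509). Areg was lost without CD library 1 (0.149) and HFD libraries 1, 2, 3 and 4 (0.0867, 0.0701, 0.0609 and 0.0773).

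The lists of this paragraph are short and had 1 call each, beside 1.78% called higher and 2.59% lower over all genes. Such a call describes its gene and not the list. Among differentiation markers, 1 of 7 goblet genes tested was called lower, Sytl2, a vesicle trafficking gene, with 5.33, 4.67 and 5.28 CPM in CD and 1.67, 1.89, 0.616, 0.658 and 1.01 in HFD (log2 fold change -2.14, adjusted p = 0.0361). Of the 6 absorptive colonocyte genes tested, Fabp2 was called lower. The most abundant of them, the carbonic anhydrase gene Car2, had 412, 816 and 1580 CPM in CD and 2510, 2760, 2560, 2660 and 2460 in HFD. All HFD libraries were above CD, but the CD libraries were spread widely (log2 fold change 1.47, SE 0.37, adjusted p = 0.0628). Car2, chosen after its values were seen, was called without CD library 1 (0.0316) and without CD library 3 (8.85e-05). It was also called with DESeq2 (0.000104), limma-voom (0.0108) and no filter on low counts (0.00336). Of 10 keratin genes tested Krt14, a keratin of basal epithelia, was called higher, with 31.7, 12.9 and 32.9 CPM in CD and 151, 68.3, 96.5, 60.9 and 81.6 in HFD (log2 fold change 1.83, adjusted p = 0.0309). Oas1a was the 1 of 14 interferon-stimulated genes called (log2 fold change 1.88, adjusted p = 0.0445), and 68.8% of its transcript words occur in other genes. Without CD library 1 or 2 the calls of Sytl2, Krt14 and Oas1a were lost (0.0731 to 0.178), as they were without HFD library 2 or 3 (0.0571 to 0.0941). Those of Sytl2 and Oas1a were also lost without HFD libraries 1, 4 and 5 (0.0506 to 0.0785).

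Of 35 cytosolic ribosomal protein and elongation genes, 3 were called lower (2.59% over all genes) and 0 higher. Among these 35 genes, 28 had a negative log2 fold change, and the median was -0.20. Rplp1, a stalk protein of the large subunit, had 4620, 5550 and 7120 CPM in CD and 2860, 2410, 3500, 3540 and 4320 in HFD, without overlap (log2 fold change -0.79, SE 0.19, adjusted p = 0.03). Rps2 (log2 fold change -0.73, adjusted p = 0.0285) and the elongation factor gene Eef1a1 (-0.58, adjusted p = 0.0374) were lower without overlap. Other genes hold 75.1%, 48.8% and 49.8% of the transcript words of Rplp1, Rps2 and Eef1a1, so these counts are shared with near-identical copies. Of 28 proteasome genes 23 had a positive log2 fold change (median 0.19), and 1 was called higher and 1 lower (1.78% and 2.59% over all genes). Psmb2 was called higher (408, 454 and 461 CPM in CD against 778, 930, 697, 747 and 617 in HFD, adjusted p = 0.0203). Psmb7, another catalytic core subunit, was called lower (461, 527 and 630 against 310, 304, 330, 368 and 418, adjusted p = 0.0336). None of 34 nuclear respiratory chain genes was called (median 0.18, 26 positive). All 5 calls were lost without CD library 2 (0.0664 to 0.106), HFD library 1 (0.0633 to 0.107) and HFD library 4 (0.0562 to 0.0773). All but that of Psmb2 were lost without HFD library 2 (0.06 to 0.083), those of Rps2, Eef1a1 and Psmb2 without CD library 1 (0.0538 to 0.0604), and those of Rplp1, Eef1a1 and Psmb7 without HFD library 3 (0.0518 to 0.0672).

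Of the 13 mitochondrially encoded genes, 1 was called lower (2.59% over all genes) and 0 higher. It was mt-Nd3, a complex I subunit, with 304, 269 and 259 CPM in CD and 142, 118, 132, 195 and 236 in HFD (log2 fold change -0.75, adjusted p = 0.0498). The place of mt-Nd3 in the sorted order changes when punctuation is ignored, and its value then turns positive (0.36, adjusted p = 0.247). Another gene holds 98.1% of its transcript words. It was lost without CD libraries 1 and 2 (0.156 and 0.141) and without HFD libraries 1 to 4 (0.0772 to 0.13). In the plain order the list as a whole had a median of -0.18 and took 2.94% to 3.24% of all counts in CD and 3.38% to 4.36% in HFD.

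Among called genes whose groups did not overlap and whose mean log2 CPM reached 1, with symbols of Gm plus digits or ending in Rik left out, the largest falls were those of AY036118, Uts2, Adgrg7, Myl7, Slpi, Otop1, Fam3b, Snord118, Eepd1 and Fnbp1. Uts2, the gene of the peptide hormone urotensin 2, had 98.7, 129 and 51.8 CPM in CD and 6.69, 10.8, 12.7, 4.94 and 27.4 in HFD. Its lowest CD library stood well above its highest HFD library (log2 fold change -2.88, SE 0.54, adjusted p = 0.0322). Myl7, a myosin light chain gene of the heart atrium, had 94.2, 136 and 33.8 CPM in CD and 8.36, 11.6, 15.6, 5.26 and 20 in HFD (log2 fold change -2.85, SE 0.51, adjusted p = 0.0264). Slpi, a secreted protease inhibitor of mucosal surfaces, had 8.66, 13.3 and 23.3 CPM in CD and 1.19, 4.59, 1.03, 1.48 and 3.04 in HFD (log2 fold change -2.73, SE 0.47, adjusted p = 0.0116). The others had at most 36.7 CPM in any CD library. AY036118, a pseudogene by its type in the table that was counted here among the ribosomal RNA rows, had the largest fall under these limits (log2 fold change -3.36, adjusted p = 0.00902), with 5.44, 6.14 and 26.6 CPM in CD and under 2 CPM in all HFD libraries. AY036118 and Slpi were called in all 8 fits without 1 library (adjusted p up to 0.0442 for both). The level of AY036118 in CD rested on library 3: its log2 fold change ran from -3.73 to -2.27 over those fits, and its call was lost with limma-voom (0.0594). The other 8 calls were lost without CD library 2 (0.0538 to 0.215). Without CD library 1 or HFD libraries 1 to 4 between 3 and 7 of them were lost (0.0547 to 0.0908).

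The largest rises were those of Gkn1, Irx4, Basp1, Krtap1-5, Slc4a8, Sorbs2, Lbhd1, Iqgap3, Tspan32 and Onecut2. Tspan32, a tetraspanin gene, had 18.5, 18.0 and 27.6 CPM in CD and 133, 75.6, 67.7, 61.9 and 139 in HFD. All HFD libraries exceeded all CD libraries more than 2-fold (log2 fold change 2.17, SE 0.32, adjusted p = 0.00736). Onecut2, a transcription factor gene of gut and liver development, had 3.55, 3.51 and 6.24 CPM in CD and 26.7, 18.4, 9.24, 16.6 and 21.7 in HFD (log2 fold change 2.09, SE 0.37, adjusted p = 0.0125). Sorbs2, a cytoskeletal adaptor gene, had 2.0, 1.02 and 1.44 CPM in CD and 11.9, 19.4, 4.31, 8.72 and 7.97 in HFD (log2 fold change 2.77, SE 0.51, adjusted p = 0.0153). Gkn1, a secreted protein of the stomach lining, rested on 4 counts in all CD libraries together and 123 in HFD (log2 fold change 4.33, adjusted p = 0.0187), and Irx4, a homeobox gene, on 6 and 125 (3.83, adjusted p = 0.0211). Apart from Tspan32, these genes averaged between 0.234 CPM (Gkn1) and 4.43 CPM (Onecut2) in CD. Leaving out CD library 2 ended all 10 calls (0.0615 to 0.153), and leaving out CD library 1 ended those of Gkn1, Irx4, Basp1, Krtap1-5, Slc4a8, Lbhd1 and Iqgap3 (0.0538 to 0.136). HFD libraries 1 to 5 ended between 1 and 6 of them (0.0509 to 0.0989). Krtap1-5 moves in the sorted order when punctuation is ignored.

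The diet effect with serine was set against that of the serine-free diets in 1 model of all 18 libraries. All libraries with serine stand in 1 set of columns, whose rows were out of step, and all serine-free ones in another. Serine and library set cannot be told apart, so no difference given here can be credited to serine alone. The CPM were normalised within each set. The difference between the diet effects was called for 29 of 12814 genes (0.226%), 12 higher and 17 lower with serine, and 1542 were under an unadjusted p of 0.05. Of the 452 genes called for diet with serine, 12 were called for the difference. In that model 4 of the 452 were called for diet. The 29 calls became 279 with DESeq2 and 589 without the libraries under 1000000 counts. Those libraries were SF_CD 1, SF_CD 5 and SF_HFD 5, with 499774, 523601 and 727610 counts. Ribosomal RNA rows took 22.0%, 14.6% and 2.97% of their counts. Markers of other cell types also differed between the serine-free groups. The smooth muscle gene Acta2 had 6.79 ± 5.45 CPM in SF_CD and 97.6 ± 18.1 in SF_HFD. In CD and HFD it had 1.08 ± 0.759 and 1.16 ± 0.714. Col1a1 had 7.02 ± 9.28 in SF_CD and 25.1 ± 12.0 in SF_HFD, whereas Pecam1 had 9.91 ± 12.5 and 2.02 ± 1.61. The part of these marker differences in the values below was not tested.

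In some of the 12 genes the mean levels moved in opposite directions with and without serine. Tmsb10, an actin-binding peptide gene, had 1350 ± 452 CPM in CD and 764 ± 86.2 in HFD, but 910 ± 206 in SF_CD and 2250 ± 632 in SF_HFD (difference -2.05, SE 0.42, adjusted p = 0.0366). Aldh2, the mitochondrial aldehyde dehydrogenase gene, had 18.9 ± 10.4 and 3.93 ± 2.42 with serine and 40.1 ± 12.0 and 102 ± 45.0 without (difference -3.47, SE 0.65, adjusted p = 0.0231). Kdelr3, a receptor that returns proteins to the endoplasmic reticulum, had 37.3 ± 15.4 and 7.83 ± 3.05 with serine and 7.28 ± 3.54 and 13.9 ± 5.42 without (difference -2.89, SE 0.56, adjusted p = 0.0283). Afg3l2, a protease gene of the inner mitochondrial membrane, had 53.8, 80.5 and 57.1 CPM in CD and 14.1, 11.3, 14.8, 11.2 and 23.6 in HFD. It had the smallest adjusted p of all (log2 fold change -2.08, SE 0.25, adjusted p = 0.00305) and was called in all 17 alternative settings. Without serine Afg3l2 had 31.1 ± 18.0 CPM in SF_CD and 40.8 ± 8.88 in SF_HFD (difference -2.48, SE 0.49, adjusted p = 0.0283). The glycolysis gene Gapdh had 3210 ± 1460 CPM in SF_CD and 4740 ± 852 in SF_HFD, and the difference between its diet effects was -1.55 (SE 0.47, adjusted p = 0.175). That of Rrm2 was 1.2 (SE 0.64, adjusted p = 0.49). In this model, which includes the libraries under 1000000 counts, neither is shown to differ between the serine-containing and serine-free diets. Their values without those libraries are not given here. Afg3l2, Kdelr3, Tmsb10 and Aldh2 lie outside the rule for named genes and were chosen after their values were seen.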

How the data were processed

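Bulk RNA was measured in 18 mouse colon libraries, of which the 8 HFD and CD libraries were compared. The authors deposited 1 table of estimated counts per gene made with Salmon 1.3.0 and mm10, per the submitters' processing notes. Which annotation they used is not given in the sources used here. The deposited counts were whole numbers, so no rounding was needed. Rows of the 8 columns were realigned by sorted symbol, and rows were named in blocks of 500 with a correlation over 0.5 with the serine-free columns. The members, gene lists and tests were chosen with earlier results of these data known.

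HFD was tested against CD on the realigned counts with edgeR 4.0.16 (filterByExpr, TMM, quasi-likelihood test, Benjamini-Hochberg adjustment over all rows tested, threshold 0.05) in R 4.3.3, and a gene past the threshold is said to be called. Alternatives were RLE scaling, no filter on low counts, at least 1 CPM in 3 libraries, DESeq2 1.42.0, limma-voom (limma 3.58.1), all 18 libraries in 1 model, the replicate block, leaving out each library, punctuation ignored in sorting, a block correlation over 0.8, other block lengths, and, added after seeing the data, no ribosomal RNA rows. Scripts were tested on simulated data.

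The rule for named genes took, among called genes with a symbol that occurs once, groups that do not overlap and a log2 CPM averaging 1 or more, the 10 largest rises and 10 largest falls. It added up to 4 called members of each list by adjusted p, or the 2 most abundant where no member was called, and a fixed set of stem cell, ceramide, fat oxidation and marker genes. Symbols of Gm plus digits or ending in Rik were counted and not named, except where stated. There were 38 lists with 806 entries, and 6 lists were added after seeing the calls. Gene positions are those of GENCODE M21 (mm10), which holds 94.7% of the identifiers. A low count limits precision: 3 counts were taken as the floor. Shared transcript words limit it too. Besides the genes for which this is said above, they made up 38.1% for Lbhd1, 32.4% for Snord118, 32.3% for Krt8 and 32.0% for Tmsb10. The shares were 28.2% for Krt14, 27.9% for Fdps, 27.7% for Ccnb1 and 23.3% for Pcna. Some genes that the rule names are not reported here.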

Additional observations from a re-analysis of the deposited data

Results flagged for a closer look

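In HFD library 5, 4 genes lay apart from the other HFD libraries by Dixon's criterion, the gap to the nearest library as a share of the group's range. Rrm2 was at 134 CPM there against 200 to 209 CPM in the others. Basp1 was at 12.5 CPM against 2.46 to 5.01, Adgrg7 at 4.2 CPM and Pecam1, an endothelial adhesion gene, at 21.2 CPM. The cholesterol synthesis gene Fdps stood apart in HFD library 2, at 703 CPM, and Sptlc1 in HFD library 3, at 22.0 CPM. Chance flags about 1 in 20 groups, and 6 of 100 groups checked were flagged.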

How the results depend on the processing

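Against 452 called genes (184 higher, 268 lower), there were 987 (381 and 606) with no filter on low counts, 872 (397 and 475) with DESeq2, 4 (0 and 4) with all 18 libraries in 1 model and 97 (18 and 79) with the replicate block. With all 18 libraries, 1134 genes had an unadjusted p under 0.05. Leaving out 1 library gave 39 to 1159 calls, 6 to 567 higher and 33 to 592 lower. The 6 glycolysis and hypoxia falls became 0 with all 18 libraries and 0 to 7 without 1 library, and the 6 replication rises became 0 with all 18 libraries, 1 with the replicate block and 1 to 8 without 1 library. Same-numbered libraries of the diets had correlations of 0.106, -0.071 and -0.006 of their deviations from the group means. Other pairs of a CD and an HFD library ran from -0.186 to 0.258. The sample titles give only a replicate number. So few libraries cannot show whether same-numbered ones share a batch, and the replicate block is given as an alternative only. RLE scaling, the filter of 1 CPM, limma-voom, punctuation ignored in sorting, a block correlation over 0.8 and no ribosomal RNA rows gave 456, 448, 532, 452, 451 and 450 calls. Ignoring punctuation turned mt-Nd3 (0.36), and no other of the called genes given turned under any setting. Of 97 called genes given, 9 were called in all fits without 1 library, 28 with the replicate block and 2 with all 18 libraries. The 29 calls for the difference between diet effects became 279 with DESeq2 and 589 without libraries under 1000000 counts. Blocks of 250 rows named 52361 rows in place of 53111. The cause of these changes was not tested.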

Other observations

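Lists written after the calls were seen, which therefore support nothing on their own, described transcripts of RNA and ribosome assembly. Of 78 ribosome biogenesis genes tested, 15 were called higher and 4 lower, with a median log2 fold change of 0.40 against -0.02 for all genes, of which 1.78% were called higher and 2.59% lower. In the mitochondrial ribosome list 8 of 78 were called higher and 0 lower (median 0.38). The lists of mitochondrial protein import (4 of 23, median 0.22), spliceosomal Sm and Lsm proteins (4 of 22, median 0.35) and the RNA exosome (3 of 10, median 0.53) had rises and 0 falls among their calls. Of 9 golgin and GRASP genes, which shape the Golgi stack, 3 were called lower and 0 higher (median -0.38). Leaving out 1 library gave 1 to 22 rises for ribosome biogenesis, 0 to 28 for the mitochondrial ribosome, 0 to 6 for import, 0 to 6 for Sm and Lsm proteins and 1 to 5 for the exosome, and 0 to 3 falls for the golgins. The highest of these counts came without CD library 3. The lowest came without CD library 2 for ribosome biogenesis, the mitochondrial ribosome and Sm and Lsm proteins, and were reached without CD library 1 for the others.

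Gnai2, which encodes an inhibitory G protein subunit, had 446, 415 and 328 CPM in CD and 62.6, 41.8, 98.7, 72.7 and 147 in HFD. The groups were far apart (log2 fold change -2.22, adjusted p = 0.019 by edgeR's quasi-likelihood test), and the call was lost without CD libraries 1 and 2 (0.0567 and 0.0881) and HFD libraries 1 and 4 (0.055 and 0.0512). Gm15387 had 157, 45.6 and 108 CPM in CD and 0 in all 5 HFD libraries. Against 3 counts over the HFD group, its estimated counts were at least 917-fold lower. The call of Gm15387 (adjusted p = 0.0179) was lost without CD library 3 (0.0831). All of the 31-base transcript words of Gm15387 (100%) occur in other genes, among them Hmgb1, whose log2 fold change was 0.55 (adjusted p = 0.0565). How the estimate divides reads among such copies was not tested, and the 917-fold bound makes no allowance for it. These genes were chosen after their values were seen.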
